A study of Rattus norvegicus with 10 samples.

Results

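The genes described here are 10 components of Notch signalling, taken by their symbols from the 18025 genes listed for fetal rat hearts. They are the receptors Notch1, Notch2 and Notch4, the ligands Dll4, Jag1 and Jag2, and the target genes Hey1, Hey2, Heyl and Hes1. All 10 were listed and all 10 passed the filter on low values that left 14542 genes for testing. The hearts came from wild-type Sprague-Dawley fetuses at embryonic day (E) 19.5. In the HG group (5 libraries), the dams had been made hyperglycemic with streptozotocin (STZ), which destroys the insulin-producing cells of the pancreas. In the CON group (5 libraries), the dams had received only the citric acid buffer in which STZ was dissolved. The study examined how hyperglycemia in utero affects the heart of the offspring. STZ and the diabetes that follows act on the dam as a whole, so that sugar, insulin and the compound itself cannot be told apart. The labels do not say which libraries shared a litter, so that the tests below measure the spread between libraries, part of which may be technical. The study's text describes hearts in some places and isolated cardiomyocytes in a figure legend, and its methods mention pooled RNA, whereas each library has values of its own in the deposited table. Values are FPKM, that is, read numbers scaled to the length of the gene and the size of the library.

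Notch receptors are cut after a ligand on a neighbouring cell binds them, and the released fragment enters the nucleus, where it joins the DNA-binding protein RBPJ and a Mastermind coactivator to switch on genes of the Hes and Hey families. In the developing ventricle, Dll4 signals through Notch1 in the endocardium while trabeculae form, and Jag1 and Jag2 made by cardiomyocytes act later, when the wall becomes compact. The same pathway sets the arterial fate of coronary vessels. The products of Hey and Hes genes are transcriptional repressors, and Hey2 is best known as a factor of the compact ventricular wall.

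The promoters of the targets show where RBPJ could bind, and 8 of the 10 genes had an entry among the RefSeq promoters of the rat build GRCr8, which is newer than the build named in the submitters' processing notes (mRatBN7.2). The core of the RBPJ site, TGGGAA, was searched for on both strands (TTCCCA on the opposite strand) in the window from 250 bases before to 50 bases after the start of the gene. A match was found in 3 of these 8 genes, and in 25.7% of all 33469 promoters of the same length. The 2 target genes with a match are printed here, with the matched letters in capitals. Hes1 lies at chr11:84212996-84213295 (GRCr8, minus strand) and held 2 matches on its own strand, which began 123 and 109 bases before the start. Hey2 lies at chr1:28640850-28641149 (GRCr8, plus strand) and held a match on its own strand 60 bases before the start and a match on the opposite strand 175 bases before it.
Hes1: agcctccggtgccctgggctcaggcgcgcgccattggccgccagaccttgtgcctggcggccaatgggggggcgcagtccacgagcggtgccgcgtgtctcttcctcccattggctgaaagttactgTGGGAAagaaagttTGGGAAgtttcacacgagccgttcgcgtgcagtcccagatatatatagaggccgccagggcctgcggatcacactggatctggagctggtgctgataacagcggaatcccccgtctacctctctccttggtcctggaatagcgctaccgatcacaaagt
Hey2: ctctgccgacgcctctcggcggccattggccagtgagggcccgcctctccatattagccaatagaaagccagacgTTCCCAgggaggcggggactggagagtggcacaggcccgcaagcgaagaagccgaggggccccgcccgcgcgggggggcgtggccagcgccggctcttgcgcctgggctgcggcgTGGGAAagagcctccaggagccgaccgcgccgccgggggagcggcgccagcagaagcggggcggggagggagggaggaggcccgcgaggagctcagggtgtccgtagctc
The third gene with a match was the receptor Notch4, with 2 matches on the opposite strand. Notch1, Notch2, Jag1, Jag2 and Heyl had no such letters in their windows, and Dll4 and Hey1 had no entry.

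Of the 10 genes, 6 were higher in HG hearts (Notch1, Notch2, Dll4, Hey1, Hey2 and Hes1), 1 was lower (Jag2), and 3 did not pass the test (Notch4, Jag1 and Heyl). The changes were small: Hey1 had the largest, at 1.46-fold, and the other 5 higher genes ranged from 1.15-fold to 1.29-fold. The test was limma on log2(FPKM + 0.1) across all 14542 genes, called at a Benjamini-Hochberg adjusted p under 0.05, on which scale the folds of weakly expressed genes come out too small. By this rule 28.4% of all genes tested were called higher and 11.8% lower. The median log2 fold change (log2FC, HG minus CON) was 0.22 over the 10 genes and 0.09 over all genes tested. None of the 10 genes passed the study's own threshold, which also asks for a fold above 2 or under 0.5 and which 1.94% of all genes passed (limma, with the same count of 0 from limma-voom on recovered reads and at an unadjusted p under 0.05). The groups did not overlap in 2 of the 10 genes, Dll4 and Hey1, against 27.4% of all genes tested. In whole hearts, more RNA per cell and more cells of a type cannot be told apart.

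How much of this held depended on the scaling of the libraries. With median-of-ratios factors, 15.6% of all genes were called higher and 17.5% lower, so that the share of called genes that were higher went from 70.7% to 47.1%. Under this scaling 2 of the 10 genes were called higher (Dll4 and Hey1) and 1 lower (Jag2), with a median log2FC of 0.13 over the 10 genes and 0.01 over all genes. The direction of each of the 10 genes was the same under both scalings. Between 118 and 2987 reads per library lay behind each value, fewest for Hey1 and most for Notch1.

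**Figure D1:**
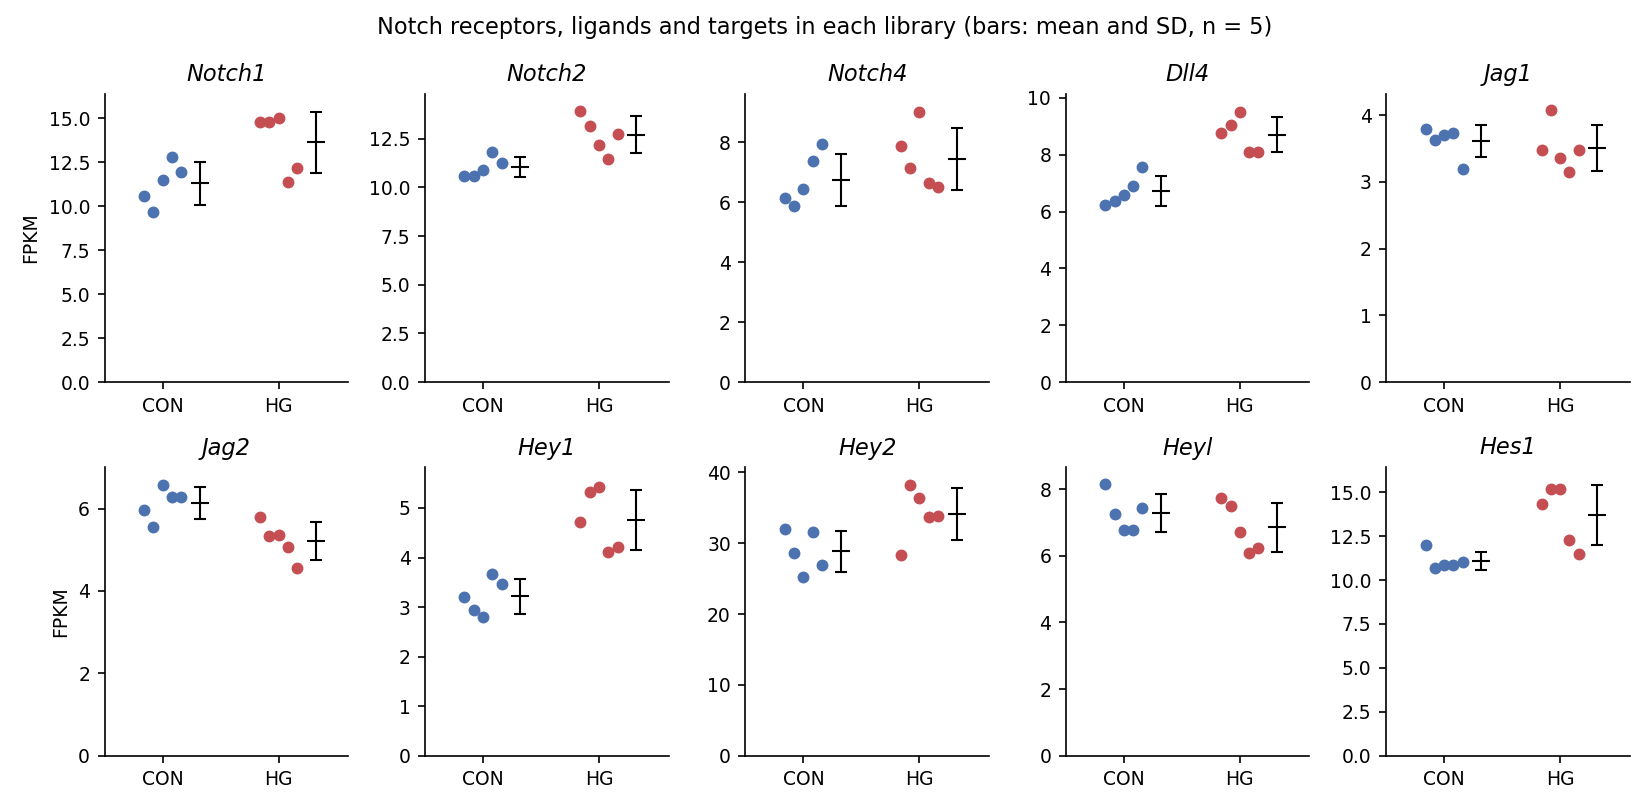
FPKM (y axis, from 0, with its own range in each panel) of the 10 Notch genes in the 5 CON and 5 HG libraries, in the order of their numbers; each point is a library, and the bar gives the mean and SD. The HG points of Dll4 and Hey1 lie above all CON points, those of Notch1 and Hes1 are spread into a higher group of 3 (HG1 to HG3) and a lower pair, and those of Notch4, Jag1 and Heyl overlap the CON points, with the 3 lowest Heyl points and the highest Notch4 point in HG.

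Among the receptors, Notch1 and Notch2 were higher in HG hearts and Notch4 did not pass the test. Notch1 (NCBI Gene 25496), the main receptor of endocardium and arteries, was at 10.6, 9.65, 11.5, 12.8 and 11.9 FPKM in CON1 to CON5 and at 14.8, 14.8, 14.99, 11.4 and 12.1 FPKM in HG1 to HG5. The first 3 HG libraries lay above every CON library, whereas HG4 and HG5 lay within the CON range. The means were 11.3 ± 1.21 and 13.6 ± 1.72 FPKM (SD, n = 5 libraries each), a log2FC of 0.26 (SE 0.0942, limma adjusted p = 0.0406). This call held in 9 of 22 alternatives (adjusted p between 0.0135 and 0.177), and it was lost without CON1, CON2, CON3, HG1, HG2 or HG3.

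Notch2 (29492), a receptor also made outside the endothelium, was at 10.6, 10.6, 10.9, 11.8 and 11.3 FPKM in CON and at 13.9, 13.2, 12.2, 11.5 and 12.7 FPKM in HG. HG4 was the only HG library under the highest CON library. The log2FC was 0.20 (SE 0.0576, limma adjusted p = 0.0157), and the call held in 18 of 22 alternatives, with the highest adjusted p of 0.192 after scaling to endothelial genes.
Notch4 (406162), a receptor of endothelial cells, was at 6.15, 5.87, 6.44, 7.38 and 7.94 FPKM in CON and at 7.88, 7.16, 9.02, 6.65 and 6.53 FPKM in HG. The groups overlapped widely, and only HG3 exceeded every CON library. Its log2FC was 0.14, with a 95% interval from -0.09 to 0.36 (limma adjusted p = 0.315).

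The ligands went in different directions. Dll4 (311332), the ligand of endocardial and arterial endothelial cells, was at 6.22, 6.38, 6.57, 6.89 and 7.59 FPKM in CON and at 8.78, 9.04, 9.51, 8.11 and 8.09 FPKM in HG. Every HG library lay above every CON library. The means were 6.73 ± 0.539 and 8.70 ± 0.613 FPKM (SD, n = 5 each), a log2FC of 0.37 (SE 0.0675, limma adjusted p = 0.00113). The call held in 22 of 22 alternatives, with adjusted p from 0.000580 to 0.00872.

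Jag2 (29147) was the only gene of the 10 that was lower in HG hearts. Its values were 5.96, 5.56, 6.57, 6.28 and 6.27 FPKM in CON and 5.78, 5.32, 5.35, 5.06 and 4.55 FPKM in HG. Only HG1 reached into the CON range, where it exceeded CON2. The means were 6.13 ± 0.385 and 5.21 ± 0.453 FPKM (SD, n = 5 each), a log2FC of -0.23 (SE 0.0717, limma adjusted p = 0.0219). The call held in 21 of 22 alternatives (adjusted p from 0.00443 to 0.0562) and was lost without CON3, the library with the highest Jag2 value.

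Jag1 (29146), a ligand of myocardium and vessels, was at 3.79, 3.63, 3.70, 3.74 and 3.196 FPKM in CON and at 3.48, 4.07, 3.35, 3.14 and 3.48 FPKM in HG. The lowest and the highest value of all libraries both lay in HG. The log2FC was -0.04, with a 95% interval from -0.22 to 0.13 (limma adjusted p = 0.690), so that an increase of the size seen in Dll4 lay outside the interval.

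Of the target genes, Hey1, Hey2 and Hes1 were higher in HG hearts, and Heyl did not pass the test. Hey1 (155437), a target in endocardium and atria, was at 3.197, 2.94, 2.81, 3.67 and 3.46 FPKM in CON and at 4.72, 5.32, 5.42, 4.11 and 4.20 FPKM in HG. The groups did not overlap, although HG4 and HG5 were nearer to CON than the other HG libraries. The means were 3.22 ± 0.355 and 4.76 ± 0.608 FPKM (SD, n = 5 each), a log2FC of 0.55 (SE 0.1003, limma adjusted p = 0.00109). The call held in 22 of 22 alternatives (adjusted p from 0.000661 to 0.00977), on 118 to 233 reads per library.

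Hes1 (29577), a broadly used target whose promoter held the pair of matches shown above, was at 12.02, 10.7, 10.8, 10.9 and 11.01 FPKM in CON and at 14.3, 15.2, 15.2, 12.3 and 11.5 FPKM in HG. Of the HG libraries, only HG5 was under the highest CON library. The means were 11.1 ± 0.537 and 13.7 ± 1.70 FPKM (SD, n = 5 each), a log2FC of 0.30 (SE 0.0786, limma adjusted p = 0.0101). The call held in 20 of 22 alternatives and was lost after quantile normalization and under median-of-ratios scaling (adjusted p between 0.00196 and 0.0698).

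Hey2 (155430), the factor of compact myocardium, was at 32.0, 28.6, 25.3, 31.5 and 27.0 FPKM in CON and at 28.4, 38.2, 36.4, 33.6 and 33.9 FPKM in HG. HG1 lay within the CON range and the other 4 HG libraries above it. The log2FC was 0.24 (SE 0.0833, limma adjusted p = 0.0385). This call held in 8 of 22 alternatives (adjusted p from 0.00779 to 0.229), and the settings that lost it included scaling by median of ratios, quantiles or endothelial markers, hemoglobin genes left out, no filter, and each of CON2, CON3, CON5, HG2, HG3, HG4 and HG5 left out.
Heyl (313575), a target in vascular smooth muscle, was at 8.15, 7.26, 6.79, 6.78 and 7.43 FPKM in CON and at 7.75, 7.51, 6.70, 6.08 and 6.23 FPKM in HG. CON and HG values overlapped, with the 3 lowest in HG. The log2FC was -0.09, with a 95% interval from -0.26 to 0.08 (limma adjusted p = 0.400).

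**Figure D2:**
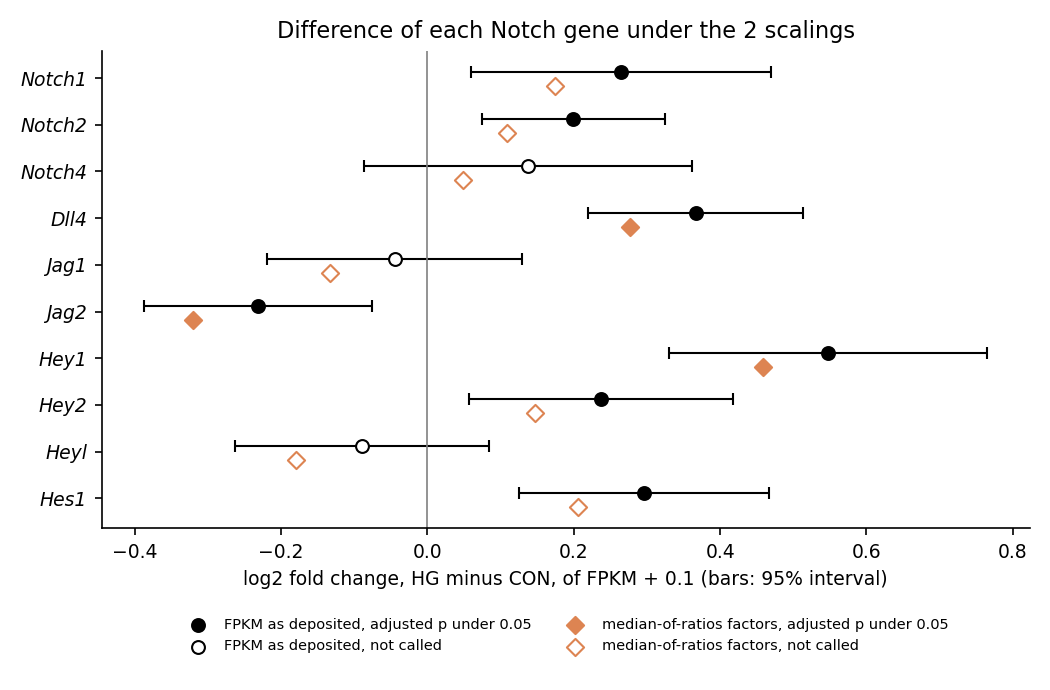
Log2 fold change (x axis, HG minus CON, of FPKM + 0.1) of each of the 10 Notch genes, as circles with 95% intervals for the FPKM as deposited and as diamonds for median-of-ratios factors; filled symbols have an adjusted p under 0.05. All diamonds lie to the left of their circles, and Dll4, Hey1 and Jag2 are filled in both.

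The 6 higher genes were not raised to the same degree in each HG library. HG2 and HG3 lay above every CON library in 6 of the 6 genes, HG1 in 5, and HG4 and HG5 in 4 each. The summed FPKM of the 12 endothelial markers was also higher in the first 3 HG libraries, at 464.9, 470.2 and 452.7 in HG1 to HG3 and at 419.5 and 422.2 in HG4 and HG5, against 395.7 to 444.8 in CON. The 5 arterial markers summed to 63.7, 64.8 and 67.6 FPKM in HG1 to HG3, to 53.6 and 55.1 FPKM in HG4 and HG5, and to 46.4 to 52.3 FPKM in CON. The 3 endocardial markers did not show this split. They summed to 33.9, 40.5 and 39.4 FPKM in HG1 to HG3 and to 29.4 and 40.7 FPKM in HG4 and HG5, against 21.9 to 26.1 FPKM in CON. After every library was scaled to its endothelial markers, Dll4 (log2FC 0.28, limma adjusted p = 0.00872), Hey1 (0.46, adjusted p = 0.00283) and Hes1 (0.21, adjusted p = 0.0300) were still called higher and Jag2 was called lower (-0.31, adjusted p = 0.00443), whereas Notch1, Notch2 and Hey2 were not called. Under this scaling 11.8% of all genes were called higher and 14% lower, so that 45.7% of called genes were higher.

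Ratios of 2 genes within a library do not change when the whole library is multiplied by a factor, and 3 were compared. The ratio of Dll4 to Jag1 was 1.64, 1.76, 1.77, 1.84 and 2.37 in CON and 2.52, 2.22, 2.84, 2.58 and 2.33 in HG. Apart from CON5, all CON libraries lay below all HG libraries. The means were 1.88 ± 0.287 and 2.50 ± 0.239 (SD, n = 5 each), a log2 difference of 0.42 (two-sided exact permutation test over all divisions of the 10 libraries into 5 and 5, p = 0.0238, adjusted over the 3 ratios 0.0357).

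The ratio of Hey2 to Hey1 was lower in HG. It was 10.02, 9.70, 9.005, 8.595 and 7.79 in CON and 6.01, 7.17, 6.71, 8.18 and 8.06 in HG, so that only CON5 lay below the 2 highest HG libraries. The means were 9.02 ± 0.888 and 7.23 ± 0.914 (SD, n = 5 each), a log2 difference of -0.32 (exact permutation test, p = 0.0238, adjusted p = 0.0357). Quantile normalization, which is not a single factor per library, gave -0.27 (adjusted p = 0.0714 by the same exact test). Both Hey genes were called higher in HG, Hey1 in 22 of 22 alternatives and Hey2 in 8 of 22. The ratio gives the greater change of Hey1 and does not tell whether Hey2 changed. The ratio of Notch4 to Notch1 was 0.598 ± 0.0411 in CON and 0.548 ± 0.0461 in HG (log2 difference -0.13, exact permutation test, p = 0.111, adjusted p = 0.111). No p under 0.00794 can be reached with groups of this size. With 4 libraries in a group, the adjusted p of the first 2 ratios came to 0.0635 or 0.0714 in 8 of 10 cases.

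**Figure D3:**
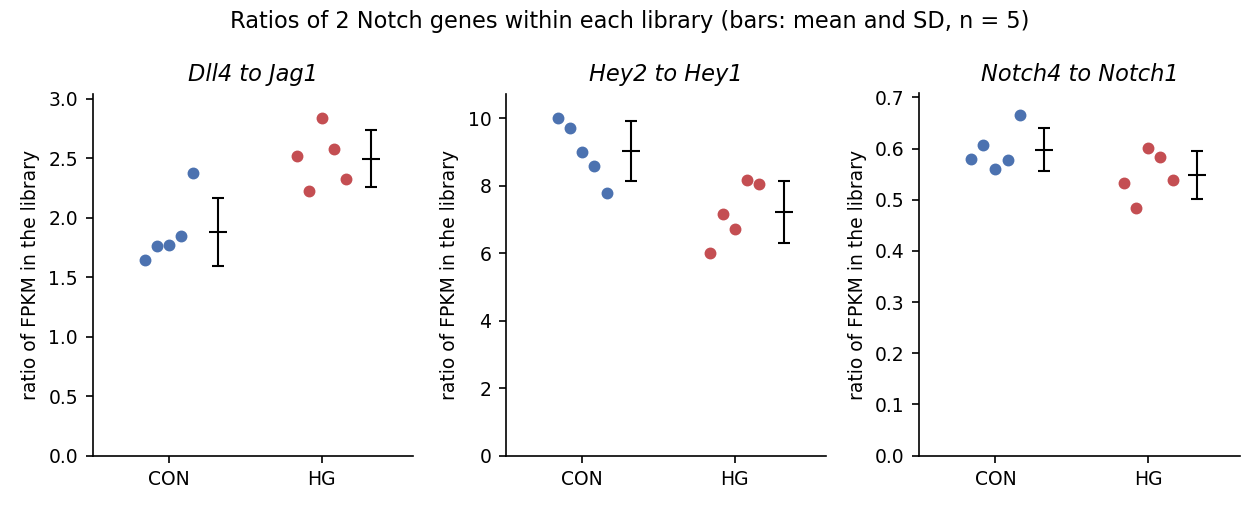
Ratio of FPKM within each library (y axis, from 0) for Dll4 to Jag1, Hey2 to Hey1 and Notch4 to Notch1; each point is a library, and the bar gives the mean and SD of 5 libraries. Dll4 to Jag1 is higher in HG apart from CON5 at 2.37, Hey2 to Hey1 is lower, and the Notch4 to Notch1 points overlap.

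FPKM is per length of gene, so that levels could be ranked between genes. In CON hearts Hey2 was the highest of the 10 at 28.9 ± 2.90 FPKM, followed by Notch1, Hes1 and Notch2 at 11.03 to 11.29 FPKM, which overlapped. Heyl, Notch4, Dll4 and Jag2 came next at 6.13 to 7.28 FPKM, each overlapping its neighbour, and Jag1 and Hey1 were lowest at 3.61 ± 0.240 and 3.22 ± 0.355 FPKM. In HG hearts Hey2 was again first, without overlap. Dll4 went from place 7 to place 5, above Notch4 in 5 of 5 HG libraries although the ranges overlapped. In CON hearts Notch4 and Dll4 were nearly level, at means of 6.755 and 6.731 FPKM, with Notch4 the higher in 2 of 5 libraries. Heyl went from place 5 to place 7. Hey1 was above Jag1 in 5 of 5 HG libraries without overlap, whereas it was below Jag1 in 4 of 5 CON libraries.

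Each gene was also compared with 11709 genes of at least 1 FPKM for the most similar variation over the 10 libraries, after the mean of each group was taken off. The closest gene was Hspg2, which encodes the basement membrane protein perlecan, for Notch1 (Pearson r = 0.960) and Col4a2, a collagen of basement membranes, for Jag2 (r = 0.964). For the others it was Top3b for Notch2 (0.963), Myo10 for Notch4 (0.945), Amdhd2 for Dll4 (0.952), Taf7 for Jag1 (0.947), LOC685619 for Hey1 (0.960), Mtfr2 for Hey2 (0.953), Prr7 for Heyl (0.939) and Shkbp1 for Hes1 (0.946). Each is the highest of very many correlations over few libraries that share their depth and composition, and they are given as a description.

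The rest of the pathway was represented by 45 further genes, of which 42 could be tested. Of these, 13 were higher in HG, 1 was lower and 28 did not pass the test, with a median log2FC of 0.13. The share called higher was near that of all genes (28.4%), and 11.8% of all genes were called lower. The median log2FC over all genes tested was 0.09. With median-of-ratios factors 8 were higher and 6 lower (all genes 15.6% and 17.5%), and after scaling to endothelial markers 6 were higher and 2 lower (all genes 11.8% and 14%).

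In the nuclear complex, 5 of 11 genes were higher and 1 was lower, against 28.4% and 11.8% of all genes tested. With median-of-ratios factors 4 were higher and 2 lower (all genes 15.6% and 17.5%). After scaling to endothelial markers 3 were higher and 2 lower (all genes 11.8% and 14%). The coactivator Maml3 went from 2.79 ± 0.177 to 4.11 ± 0.278 FPKM (SD, n = 5 libraries per group; log2FC 0.54, limma adjusted p = 0.000128), and Maml1 had a log2FC of 0.36 (adjusted p = 0.00143). Both were called under 22 of 22 alternatives. Hdac1, a histone deacetylase found in many repressor complexes, went from 46.4 ± 1.07 to 65.5 ± 1.93 FPKM (log2FC 0.50, adjusted p = 1.09e-06), again under 22 of 22 alternatives. Snw1 (0.29) and Ep300 (0.13), both coactivators, were the other higher genes, and the acetyltransferase Kat2b was lower (-0.23, adjusted p = 0.00208). Rbpj itself was at 15.4 ± 0.861 and 16.3 ± 0.582 FPKM, with a log2FC of 0.08 (adjusted p = 0.204).

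Among 16 genes of receptor glycosylation, trafficking and ubiquitination, 5 were higher and 0 lower in HG (limma, with 0 lower at an unadjusted p under 0.05 and 0 from limma-voom). Of all genes tested, 28.4% were higher and 11.8% lower. With median-of-ratios factors 4 of the 16 were higher and 2 lower (Rfng and Numb), against 15.6% and 17.5% of all genes. Dtx3, a Deltex ubiquitin ligase, was at 18.0 to 23.9 FPKM in CON libraries and at 28.0 to 29.2 in HG libraries (log2FC 0.46, adjusted p = 0.000221). Poglut1, which adds glucose to the extracellular repeats of Notch, was at 8.33 to 11.1 FPKM in CON libraries and at 11.4 to 13.3 in HG libraries (0.45, adjusted p = 0.000748). Both sets of HG libraries lay above all CON libraries. The convertase Furin (0.30) and the fucosyltransferase Pofut1 (0.25) also lay apart between the groups, and Dtx4 (0.28) was called with overlap. Of the 8 protease genes, Adam10 (0.14), Ncstn (0.17) and Aph1b (0.56, from 0.122 ± 0.0346 to 0.231 ± 0.0712 FPKM) were higher and 0 were lower, whereas with median-of-ratios factors 0 were higher and 2 lower. Aph1b rested on only 10 to 35 reads per library, and its call held in 5 of 21 alternatives.

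Neither the other receptors and ligands nor the other targets held a called gene. Notch3, the receptor of vascular smooth muscle and pericytes, had a higher level than the 3 receptors above, at 18.4 to 24.9 FPKM in CON libraries and at 18.8 to 29.4 in HG libraries (log2FC 0.16, limma adjusted p = 0.255). Nrarp, a target that feeds back on the nuclear complex, was at 5.70 ± 0.929 and 6.60 ± 1.24 FPKM (0.20, adjusted p = 0.262). Dll1 and Dner were below 1 FPKM in every library. Among these 7 tested genes, 0 had an unadjusted p under 0.05 and 0 were called by limma-voom.

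**Figure D4:**
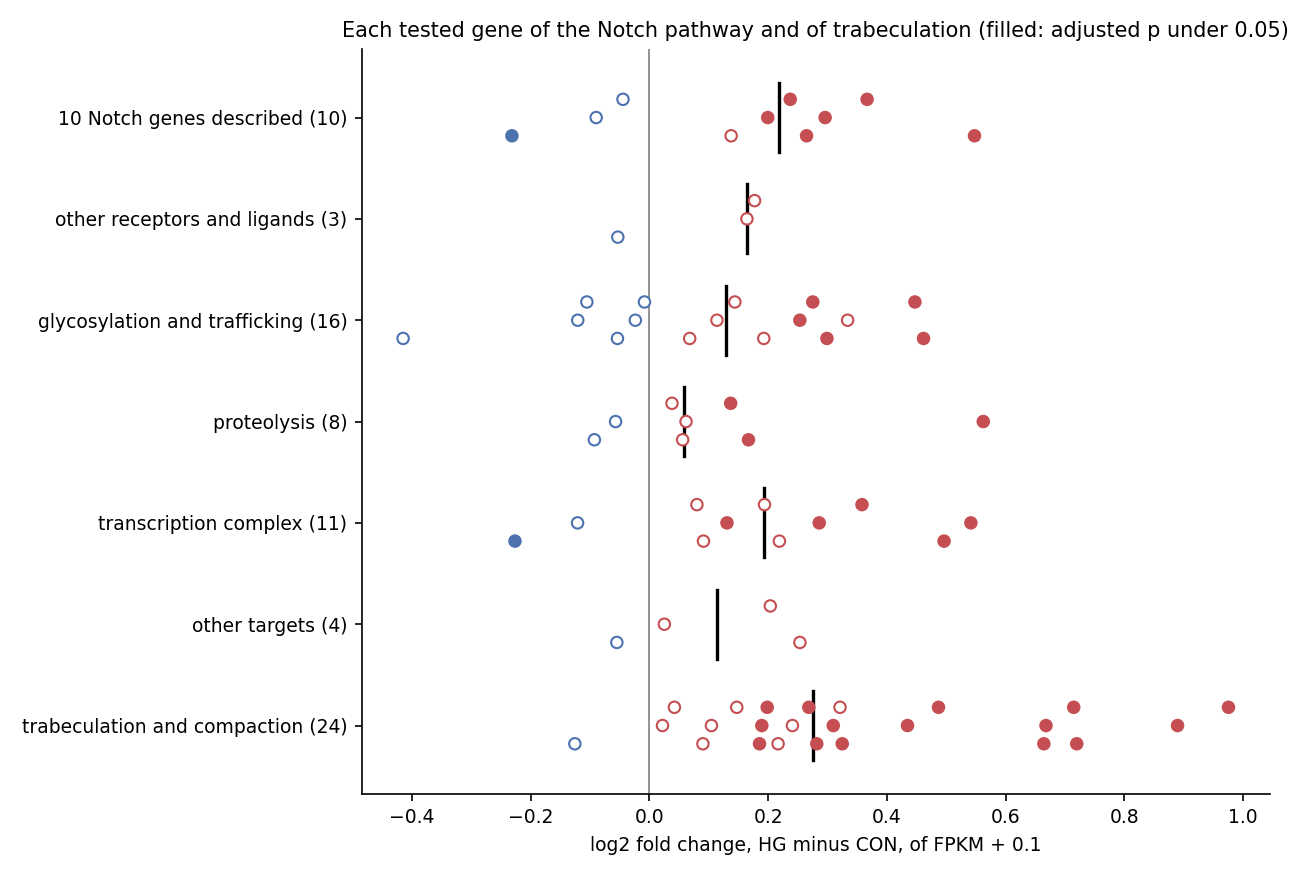
Log2 fold change (x axis, HG minus CON, of FPKM + 0.1) of each tested gene of the Notch lists and of the trabeculation and compaction list, with the number tested in brackets; red is higher and blue lower in HG, filled points have an adjusted p under 0.05, and the bar is the median of the list. The medians run from 0.06 in proteolysis to 0.28 in trabeculation and compaction, where Bmp10 and Vcan are farthest to the right.

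The genes of trabeculation and compaction, 24 in all, were examined beside the Notch genes, since several of them act with Notch in the ventricular wall. In HG hearts 15 were higher, 0 were lower and 9 did not pass the test (limma, with 0 lower at an unadjusted p under 0.05 and by limma-voom), and the groups did not overlap in 13. Over all genes tested, 28.4% were higher, 11.8% were lower and 27.4% did not overlap. With median-of-ratios factors 11 were higher and 1 lower (all genes 15.6% and 17.5%), and after scaling to endothelial markers the counts were the same (all genes 11.8% and 14%). Bmp10, a growth factor on this list, was at 10.8, 15.9, 21.6, 13.8 and 17.1 FPKM in CON and at 30.8, 33.4, 30.3, 25.6 and 32.7 FPKM in HG. Whether its RNA came from ventricle or atrium was not measured. All HG libraries lay above all CON libraries, with a log2FC of 0.98 (SE 0.147, adjusted p = 0.000298). Nrg1, the endocardial growth factor that drives trabeculation, was low and went from 0.303 ± 0.0475 to 0.544 ± 0.1004 FPKM (0.67, adjusted p = 0.00500), and its receptors Erbb2 (0.27) and Erbb4 (0.19) were also called higher.

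Vcan, a proteoglycan of the cardiac jelly between endocardium and myocardium, went from 29.3 ± 1.47 to 54.4 ± 2.74 FPKM (log2FC 0.89, limma adjusted p = 2.00e-07). Adamts1, the protease that cuts it, had a log2FC of 0.31 (adjusted p = 0.000345). The transcription factors Hand1 (0.72) and Mycn (0.66) were higher without overlap. Nppa, which encodes atrial natriuretic peptide and is a marker of trabecular and atrial myocardium, was at 1437 to 2142 FPKM in CON libraries and at 2357 to 3492 in HG libraries (0.71, adjusted p = 0.000797). Gja5, a connexin of trabecular myocardium and conduction cells, was at 52.9 ± 8.57 and 58.4 ± 7.64 FPKM and did not pass the test (0.15, adjusted p = 0.304), nor did Efnb2 (0.02) and Hand2 (-0.13).

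Markers of the cells that carry Notch signalling were measured in the same libraries. The 3 endocardial markers were higher in HG: Hapln1 went from 5.49 ± 0.610 to 11.2 ± 2.29 FPKM (log2FC 0.99, limma adjusted p = 0.000127), Npr3 had a log2FC of 0.52 (adjusted p = 0.000442) and Nfatc1 of 0.45 (adjusted p = 0.00978). They summed to 21.9 to 26.1 FPKM in CON and 29.4 to 40.7 FPKM in HG. Of 12 general endothelial markers 3 were higher (Emcn, Tie1 and Esam) and 0 lower, and the median log2FC was 0.12. Among all genes tested, 28.4% were higher and 11.8% lower. With median-of-ratios factors 1 of the 12 was higher and 2 were lower (all genes 15.6% and 17.5%), and the median was 0.03. Of 5 arterial markers Bmx (0.67), Cxcr4 (0.56) and Unc5b (0.30) were higher, and Gja4 (0.02) and Sox17 (-0.06) did not pass the test. Of 3 venous markers Nr2f2 (0.30) and Flt4 (0.31) were higher and Aplnr was lower (-0.75, adjusted p = 0.000678). The 6 cardiomyocyte markers summed to 19880 to 21080 FPKM in CON and 16250 to 18970 FPKM in HG, and 5 of them were lower. The part of endocardial and cardiomyocyte markers in the Notch results was not tested.

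**Figure D5:**
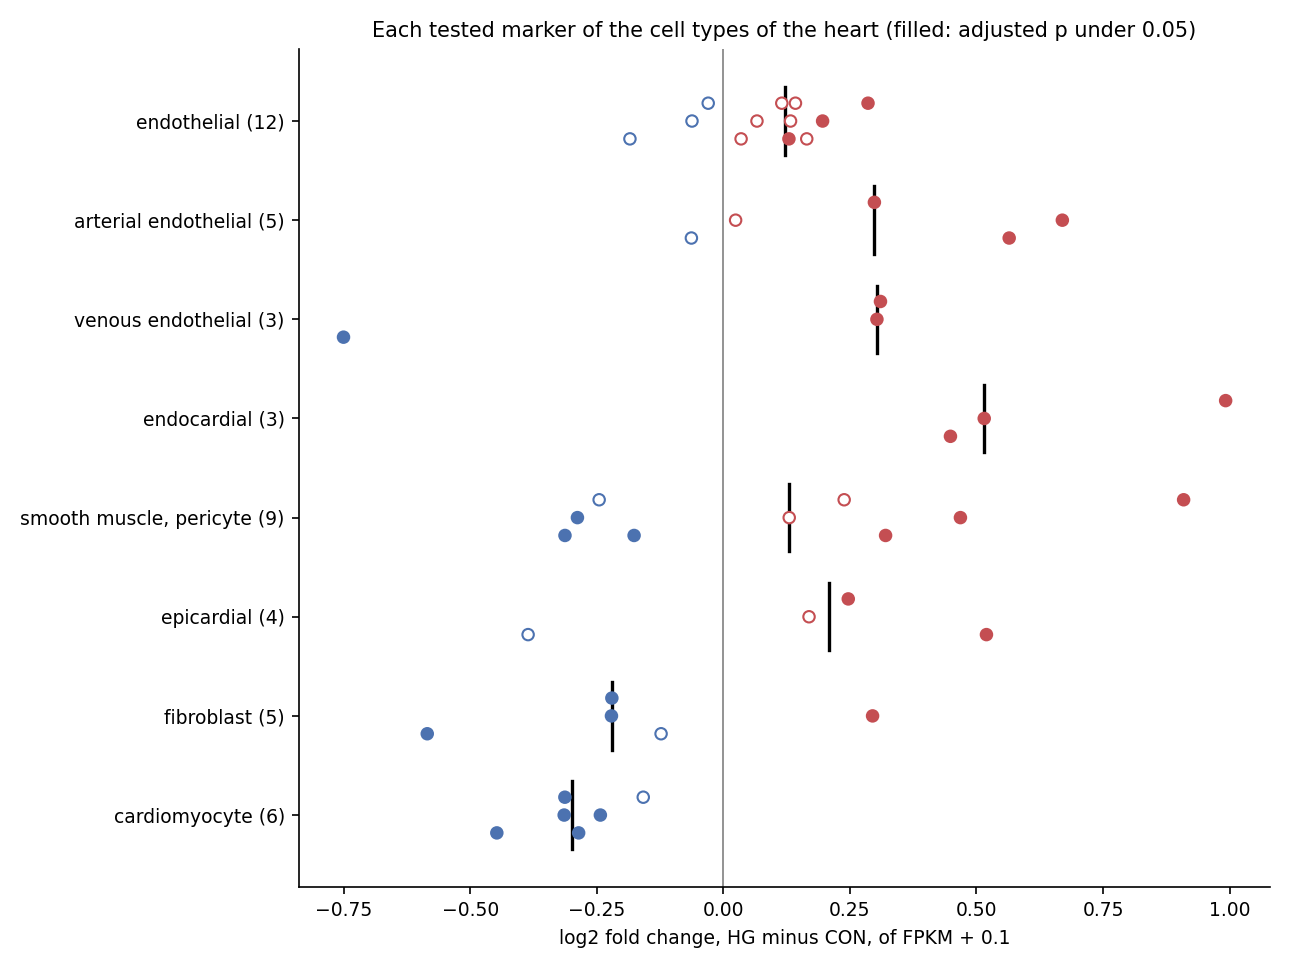
Log2 fold change (x axis, HG minus CON, of FPKM + 0.1) of each tested marker of the cell types of the heart, with the number tested in brackets; red is higher and blue lower in HG, filled points have an adjusted p under 0.05, and the bar is the median of the list. All 3 endocardial markers are filled on the right, and 5 of the 6 cardiomyocyte markers are filled on the left.

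The other lists and the libraries were as follows. Smooth muscle and pericyte markers were split, with 3 higher (Cnn1 and Acta2 among them) and 3 lower (Cspg4 and Rgs5 among them) of 9. Epicardial markers were higher in 2 of 4 and lower in 0, and fibroblast markers were higher in 1 and lower in 3 of 5. The shares over all genes tested were 28.4% higher and 11.8% lower. Blood markers summed to 10580 to 20000 FPKM in CON and 8347 to 11690 FPKM in HG, with 3 of 14 higher and 7 lower. With hemoglobin genes left out of the libraries, Notch1 and Hey2 lost their call. The 5 liver markers summed to 77.4 FPKM in CON3, to 3.15 to 7.87 FPKM in the other CON libraries and to 1.33 to 2.60 FPKM in HG, and 4 of 5 were lower in HG. Without CON3, 4 of the 10 Notch genes were called higher (Notch2, Dll4, Hey1 and Hes1) and 0 lower. Of lung epithelium only Sftpc was listed, at 0 in 9 of the 10 libraries, and of 4 thymus markers Cd8a could be tested and did not pass the test. Reads on genes numbered 17639829 to 18239924 in CON and 16672782 to 19109764 in HG, and log2 values correlated at 0.988 to 0.992 within groups and 0.977 to 0.984 between them.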

How the data were processed

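Stranded poly(A) mRNA libraries (TruSeq kit) of 5 CON and 5 HG heart samples at E19.5 were examined. The authors deposited 1 table of FPKM, for which read numbers were divided by gene length and library size, and the submitters' processing notes name fastp, HISAT2, HTSeq, R 3.2.0 and the build mRatBN7.2 with no order. Whether counting used strand is not given in the sources used here. All per-sample columns were used (0 unused), and the authors' GO and KEGG columns were not used. Raw reads were not analysed here.

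The 10 Notch genes and all lists were chosen with earlier results of these data known, so that no count over them is independent support. Libraries were grouped by their titles. DESeq, which the authors named, was not used here. The deposited unit is FPKM, so that log2(FPKM + 0.1) was fitted with limma 3.58.1 in R 4.3.3 (linear model, trend on expression, no covariate, Benjamini-Hochberg over the 14542 genes whose mean reached 0.1 FPKM, while 3483 fell below). Whole reads were recovered from the steps between FPKM values (100% of the 17298 genes with 2 or more values above 0, tolerance 0.02 reads), which gave the depth and the counts for limma-voom. For ratios an exact permutation test (two-sided) was used. Python 3.11.15, numpy 2.4.6, pandas 2.3.3, scipy 1.17.1 and matplotlib 3.10.9 were used, and the limma fit and the read recovery were tested on simulated data. In the simulation for limma, 13 of 50 genes changed 1.25-fold up or down were called, and 36 of 50 changed 1.5-fold. A gene that did not pass the test may therefore have changed by such a fold.

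Other settings tried were 4 scalings (quantile normalization, median-of-ratios factors, the endothelial markers as reference, libraries without hemoglobin genes), pseudocounts of 0.01 and 1, a minimum mean of 1 FPKM or none, limma-voom, array weights, no trend, a block for the replicate number, and leaving out each of the 10 libraries. Named genes are the 10 Notch genes, the 4 with the smallest adjusted p of each list, Notch3, Rbpj, Nrarp, Nrg1, Bmp10, Nppa and Gja5, and the most similar gene of each Notch gene. Other genes of the lists were named after their values were seen.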

Additional observations from a re-analysis of the deposited data

Results flagged for a closer look

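A library that stood apart from the other 4 of its group, by its gap to the nearest value over the range of the group (above 0.71), was found in 8 of 80 groups checked, where chance gives about 1 in 20. In 2 of the 10 Notch genes the library was a control. The lowest CON value of Jag1 was 3.196 FPKM (CON5), with the next at 3.63 FPKM, and the highest CON value of Hes1 was 12.02 FPKM (CON1), with the next at 11.01 FPKM. Hes1 was called higher in HG with and without CON1. The highest CON ratio of Dll4 to Jag1 was 2.37 (CON5), with the next at 1.84, and it was this library that overlapped the HG ratios.

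In the rest of the pathway, Furin had a highest CON value of 30.5 FPKM (next 28.2), Aph1a a highest CON value of 29.4 FPKM (next 27.7), Snw1 a lowest CON value of 22.6 FPKM (next 24.6) and Adam10 a lowest HG value of 36.1 FPKM (next 39.2). Among trabeculation genes, the highest CON value of Vcan was 31.9 FPKM (next 29.2), which was still below every HG library.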

How the results depend on the processing

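Over 22 alternatives, the 10 Notch genes kept their direction and their side of the threshold in 186 of 220 cases, lost the call in 34 and reversed in 0. These cases include Notch4, Jag1 and Heyl, which had no call to lose. Dll4 and Hey1 kept the call in 22 of 22 alternatives, Jag2 in 21, Hes1 in 20 and Notch2 in 18. Notch1 kept it in only 9 and Hey2 in 8. The number called higher (6) was 2 under median-of-ratios scaling, 2 under quantile normalization, 3 after scaling to endothelial markers and 4 to 6 when a library was left out. The number called lower (1) was 0 without CON3 and 1 without each other library. Of the other pathway genes, 13 higher and 1 lower became 8 and 6 under either median-of-ratios or quantile scaling and 6 and 2 after endothelial scaling, with 10 to 15 higher when a library was left out. Of trabeculation genes, 0 lower became 1 under median-of-ratios scaling and 1 after endothelial scaling, with 13 to 15 higher when a library was left out.

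The log2 difference of the Dll4 to Jag1 ratio (0.42) was 0.36 with a pseudocount of 1 (adjusted p = 0.0595 by exact permutation) and 0.37 to 0.51 when a library was left out. That of Hey2 to Hey1 (-0.32) was -0.22 with a pseudocount of 1 (adjusted p = 0.0595 by exact permutation), -0.27 after quantile normalization (adjusted p = 0.0714 by exact permutation) and -0.38 to -0.26 when a library was left out. The cause of these changes was not tested.

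Libraries of the same number did not deviate together (r from -0.126 to 0.108 over the 5 numbers). Weak correlations of this kind cannot exclude a pairing, and the labels do not state one. With the replicate block, 3 Notch genes were called higher (Dll4, Hey1 and Hes1) and 1 lower, 10 other pathway genes and 14 trabeculation genes were higher, and the ratios of Dll4 to Jag1 (0.42) and Hey2 to Hey1 (-0.32) each had an adjusted p of 0.188 by an exact sign-flip test, in which 5 pairs are too few to pass the threshold. The pair of CON5 and HG5 also went against the other pairs in both ratios. Its values were 2.37 and 2.33 for Dll4 to Jag1, and 7.79 and 8.06 for Hey2 to Hey1. Depth limits Hey1 most, with 118 reads in its lowest library.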

Other observations

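Some pathway genes were near the limit of detection in these hearts. Dll3, a ligand that acts inside the cell, was at 0 to 0.152 FPKM, Dlk2 at 0 to 0.181 FPKM and Hes5, a target best known from neural tissue, at 0 to 0.237 FPKM over the 10 libraries, and none of the 3 could be tested. Among the fringe glycosyltransferases, which tune the choice between Delta and Jagged ligands, none passed the test: Lfng had a log2FC of -0.01, Mfng of -0.12 and Rfng of -0.11 (limma adjusted p = 0.963, 0.257 and 0.204). Rfng was called lower with median-of-ratios factors (log2FC -0.20, adjusted p = 0.0281). Numb, an inhibitor of Notch, had a log2FC of -0.05 (adjusted p = 0.372) and of -0.14 with median-of-ratios factors, where it was called lower (adjusted p = 0.0217), and Numbl of 0.19 with no overlap between the groups (adjusted p = 0.0558). These genes were chosen after their values were seen.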
